A study of Drosophila melanogaster with 2 samples.

Results

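The broad binding regions of the Drosophila melanogaster protein Trl are the 540 peaks of 2500 bp or wider on the chromosome arms 2L, 2R, 3L, 3R, 4 and X, out of 5195 peaks in the deposited list. They were set against the 4648 narrower peaks of the same arms, called other peaks here. The remaining 7 peaks lay on heterochromatic or unplaced sequences and had a width of at most 1422 bp, so none of them was broad. Peaks came from chromatin immunoprecipitation followed by sequencing (ChIP-seq) of formaldehyde-fixed embryos of 16 to 24 h with the antibody KW3-Trl-D2, and the title of the immunoprecipitated sample joins replicates 1 and 2. The second sample was the chromatin input of the same stage, the control per the series' design text, and no values of it were used here. The labels' protocols name iso1 (y; bw cn sp) flies or transgenic flies without saying which were used for these embryos, and whole embryos mix all their cell types.

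The product of the Trl gene is known as the GAGA factor and recognises GA-rich repeats through a zinc finger. Its BTB/POZ domain lets molecules of the factor bind to each other, so that it occupies neighbouring repeats together. It is known for keeping promoter regions free of nucleosomes, as at heat-shock genes, and for its presence at Polycomb response elements and at the homeotic gene complexes. One way for a called region to be wide is that repeats lie close together over a long stretch. A peak list does not show the sites within a region, and the reason for the width of these regions was not tested.

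Only 1 list of 1 immunoprecipitated sample was at hand, so nothing below has a replicate check and the read depth is unknown. Peaks of a list are not replicates and no test was run. The 95% intervals of shares (Wilson) and of differences between shares (Newcombe) cover counting error only and take peaks as independent, which neighbouring peaks are not. Positions are on build BDGP5, counted from 1. No gene is named in the list, and no sequence or annotation of this build was used, so regions are named by position.

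The broad peaks made up 10.4% of the peaks of the 6 arms (95% interval 9.61 to 11.3%) and held 1.89 of the 7.87 Mb that peaks covered there, which is 24.1%. They were chosen by their width, so the following widths and scores, which come from the same list, are a description. Their median width was 3114.5 bp (quartiles 2767 and 3809 bp, maximum 10387 bp), against a median of 1173 bp for the other peaks. Widths crowded toward the threshold: 227 of the 540 lay between 2500 and 2999 bp, 111 reached 4000 bp and 50 reached 5000 bp. The narrowest members were 2500 bp wide at 3L:21871939-21874438, 2505 bp at 3R:21413168-21415672 and 2506 bp at both 2R:11500290-11502795 and 2L:11271105-11273610. Just under the threshold lay peaks of 2496 bp at 2R:8877650-8880145, 2488 bp at X:7863156-7865643 and 2487 bp at 3R:11244536-11247022. Peaks of almost the same width thus stand on either side of the threshold, and 1 of these 4 members and 1 of the 3 non-members had scores under 3100.

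**Figure D1:**
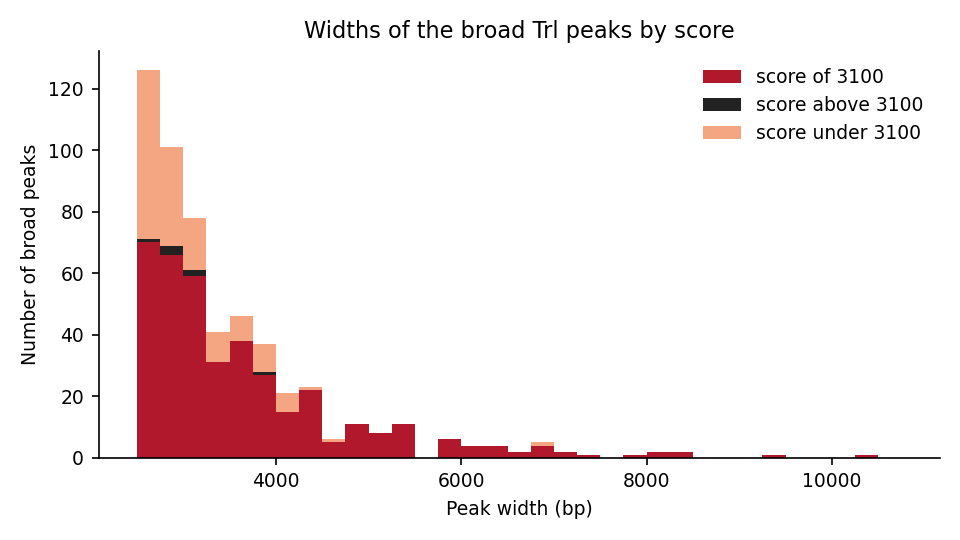
Number of broad Trl peaks (y axis) by peak width in bp (x axis, steps of 250 bp), stacked by the authors' score. Most members lie under 4000 bp, and those of 5000 bp or wider carry the score 3100 with 1 exception.

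The authors' score, whose scale the file does not state, was exactly 3100 for 393 broad peaks, or 72.8% (68.9 to 76.4%), against 465 other peaks, or 10% (9.17 to 10.9%). Another 7 broad peaks had larger values, up to 3233.06 at 3R:302353-305447. Whether a value above 3100 stands for stronger enrichment than 3100 itself is not stated. The remaining 140 broad peaks scored under 3100, and among them width and score had a Spearman's rho of 0.09, given as a description over peaks of 1 list. Only 12 broad peaks, or 2.22%, scored under the list's median of 592, against 55.5% of the other peaks.

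Those low-scored members had varied surroundings. The lowest score, 78.6, belonged to a peak of 6790 bp at 2L:8090082-8096871, which began 11 bp after the end of a peak of 1590 bp scored 275.53. The next lowest were a peak of 2519 bp at 3R:27433490-27436008 (score 194.87), one of 3034 bp at 3R:12078258-12081291 (222.52), one of 3091 bp at 3L:17949194-17952284 (230.74) and one of 2664 bp at 2R:17045715-17048378 (281.51). The first 4 of these 5 had another peak within 1000 bp, and the last had none within 10 kb. Over all 12, 5 had a peak within 1000 bp, or 41.7% (19.3 to 68.05%), a number too small to set apart from the 21.7% of the other peaks.

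Among the chromosome arms, broad peaks took the largest share of peaks on 2L, with 105 of 855, or 12.3% (10.3 to 14.7%), and on 2R, with 117 of 1010, or 11.6% (9.75 to 13.7%). On 3R, 138 of 1243 peaks were broad, or 11.1% (9.47 to 13.0%), and on 3L 100 of 1069, or 9.36% (7.75 to 11.3%). The X held 78 broad peaks among 977, or 7.98% (6.44 to 9.85%), against 11.01% (10.1 to 12%) over the 4 large autosomal arms, a difference of -3.03 percentage points (-4.86 to -0.95). Arm 4, the small and largely heterochromatic autosome, had 2 broad peaks among 34. Neighbours among the 5 large arms in this order have overlapping intervals.

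Per Mb of the span that peaks occupy on an arm, broad peaks numbered 5.55 on 2R, 4.95 on 3R, 4.59 on 2L, 4.14 on 3L, 3.52 on X and 1.67 on arm 4. Arm 2L had fewer other peaks per Mb (32.8) than 2R (42.4), 3R (39.6), 3L (40.1) or X (40.5), and its broad peaks were not correspondingly few. Once broad, peaks on X were as wide as elsewhere by their median of 3187 bp, against 3058 to 3185 bp on the 4 large autosomal arms. These medians cover only widths of 2500 bp or more. The other peaks were narrower on X, with a median of 1080 bp against 1182 to 1237 bp on those 4 arms. The lower share of broad peaks on X did not last when peaks no more than 1000 bp apart were merged before widths were taken: 18.8% of the merged regions were then broad on X, against 18.4% on the 4 large autosomal arms, a difference of 0.32 points. It was -5.06 points with a threshold of 2000 bp, -1.91 with 3000 bp, -4.99 among peaks scored 3100 and -1.80 among those scored under 3100.

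Broad peaks had more company than other peaks. Another peak lay within 10 kb, edge to edge, of 433 of the 540 broad peaks, or 80.2% (76.6 to 83.3%), against 3273 of 4648 other peaks, or 70.4% (69.1 to 71.7%). The difference was 9.77 points (5.97 to 13.2). Peaks on both sides within that distance flanked 35.2% of the broad peaks (31.3 to 39.3%) and 24.6% of the other peaks (23.4 to 25.9%), while 45.0% of the broad and 45.8% of the other peaks had company on 1 side only. The difference for both sides had an interval that included 0 on 2R (5.11 points, -3.34 to 14.5) and on X (10.3 points, -0.07 to 21.7). The median gap to the nearest peak was 2749.5 bp from broad peaks and 4390 bp from other peaks.

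For any peak within 10 kb, the direction was the same on each of the 5 large arms. On X, 87.2% of the broad and 72.6% of the other peaks had a peak within 10 kb, a difference of 14.5 points (4.93 to 20.99). It was 11.4 points on 2L (1.81 to 19.3), 10.1 on 2R (2.12 to 16.1) and 9.03 on 3R (0.98 to 15.7). On 3L, with 75% of the broad and 69.8% of the other peaks, the difference of 5.24 points had an interval that included 0 (-4.48 to 13.3). Both broad peaks of arm 4 had a neighbour, which was the other one: 2644 bp at 4:521613-524256 and 4784 bp at 4:525048-529831, separated by 791 bp and both scored 3100.

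**Figure D2:**
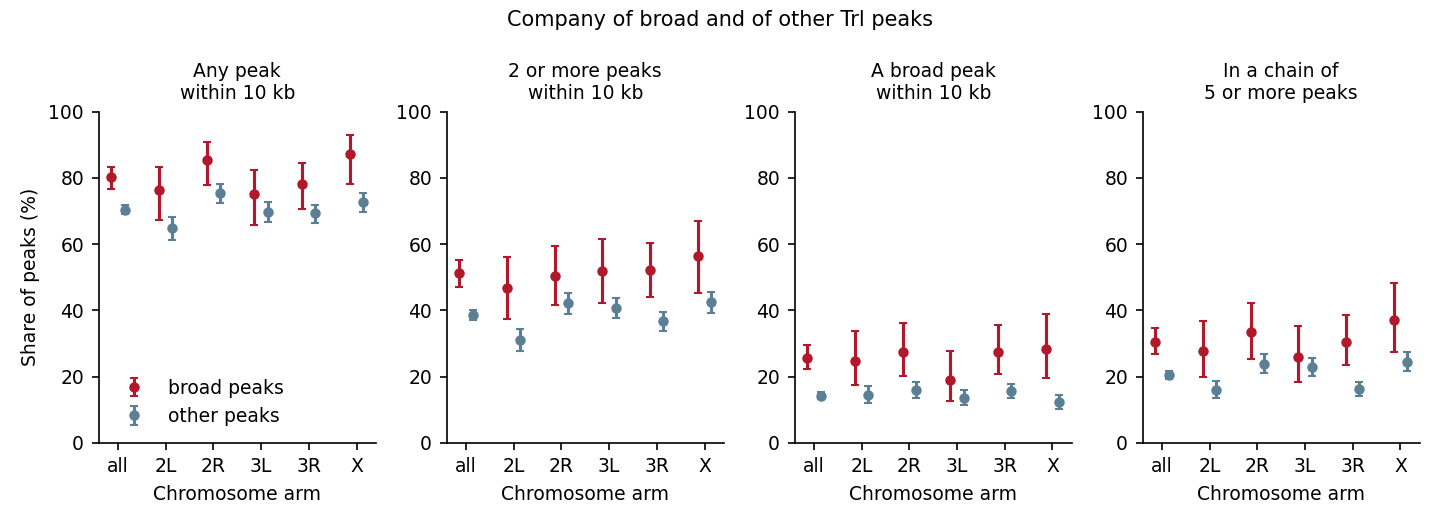
Share of broad peaks and of other peaks in % (y axes) that have any peak, 2 or more peaks or a broad peak within 10 kb, or that belong to a chain of 5 or more peaks, for all 6 arms together (all) and for each of the 5 large arms (x axes). Points are shares and bars 95% Wilson intervals, and the point of the broad peaks lies above that of the other peaks in every pair.

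Because width and score go together in this list, the comparison was also made separately for peaks scored exactly 3100 and for those scored under 3100. Among peaks scored exactly 3100, 80.2% of the 393 broad and 73.8% of the 465 other peaks had a peak within 10 kb, a difference of 6.39 points (0.71 to 11.9). Among peaks scored under 3100, it was 79.3% of the 140 broad and 70.1% of the 4151 other peaks, a difference of 9.23 points (1.65 to 15.3). Recorded scores were equal in the first of these sets only. On the 6 arms 858 peaks share the score 3100 and only 39 have a larger value, so equal scores need not mean equal enrichment. In the set scored under 3100, 12 of the 140 broad peaks and 2580 of the 4151 other peaks scored under the list's median. At a distance of 20 kb, where 92.8% of the broad and 87.1% of the other peaks had company, the difference was 5.69 points.

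Pooled over the arms, nearest gaps of at most 300 bp were more frequent for broad peaks than for other peaks. No 2 peaks of the list overlapped, and the smallest gap was 5 bp. The nearest peak began within 300 bp of the edge for 80 broad peaks, or 14.8% (12.1 to 18.1%), against 416 other peaks, or 8.95% (8.16 to 9.81%). Each peak counts only in the class of its nearest gap, so a close neighbour removes it from the wider classes. The classes therefore do not measure how much company lay farther out. Over all arms, gaps of at most 300 bp held 5.86 of the 9.77 points, or 60.04% of the difference, but unevenly between arms. The difference in this class was 11.1 points on X (3.09 to 21.7), 9.33 on 3L (2.74 to 18.2) and 7.64 on 2L (1.62 to 15.9). It was 3.93 points on 2R (-1.57 to 11.5) and 1.09 on 3R (-3.13 to 7.31), where the intervals included 0. Over all arms, gaps over 300 and up to 1000 bp added 1.52 points, gaps up to 2000 bp 0.67 and gaps up to 5000 bp 2.89, while gaps of over 5000 to 10000 bp were less frequent for broad peaks (16.5%) than for other peaks (17.7%). The peaks adjoining broad peaks within 300 bp had a median width of 1492.5 bp and a median score of 659.34, against 1368.5 bp and 723.05 for those adjoining other peaks.

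Of the 255 places in the list where 2 peaks were at most 300 bp apart, 8 joined 2 broad peaks, 68 joined a broad and another peak and 179 joined 2 other peaks. An example of the first kind is at 3R:2230493-2237298, where peaks of 4071 and 2724 bp were 11 bp apart. Whether such pairs are single enriched stretches divided in peak calling was not tested. Merging all peaks within 1000 bp joined 157 broad peaks (29.1%) and 1008 other peaks (21.7%) to a neighbour. It gave 840 regions of 2500 bp or wider among 4560, of which 383 were broad peaks standing alone, 139 combined a broad peak with its neighbours and 318 arose from narrower peaks only. Among the merged regions, 71.9% of those of 2500 bp or wider and 62.3% of the rest had another region within 10 kb, a difference of 9.62 points. Since 318 of the 840 became broad only through closely spaced peaks, this set was in part chosen for its company.

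**Figure D3:**
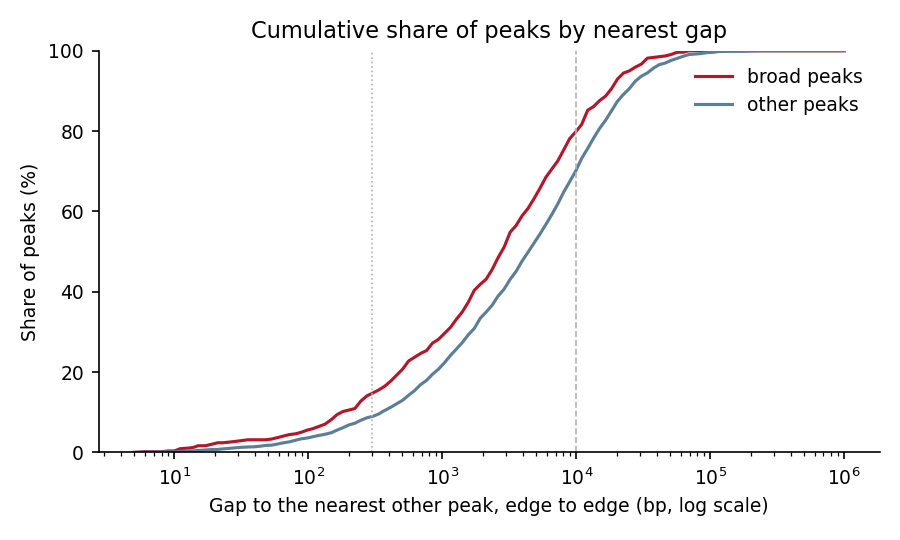
Cumulative share of peaks in % (y axis) by the gap to the nearest other peak in bp (x axis, log scale), for broad and for other peaks, with vertical lines at 300 bp and 10 kb. The curve of the broad peaks runs above that of the other peaks, with 14.8% against 8.95% at 300 bp and 80.2% against 70.4% at 10 kb.

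The flanks of broad peaks were also fuller. Within 10 kb of their 2 edges, broad peaks had 1.75 ± 1.39 other peaks (mean ± SD over 540 peaks), against 1.36 ± 1.28 around other peaks (SD over 4648 peaks), a difference smaller than the spread within either set. There were 2 or more peaks around 276 broad peaks, or 51.1% (46.9 to 55.3%), against 38.6% (37.2 to 39.98%) of the other peaks, a difference of 12.5 points (8.10 to 16.95). On 2R this difference was 8.32 points, with an interval that included 0 (-1.18 to 17.8). It was 5.51 points when only peaks scored at or above the list's median were counted, which thins the neighbours of both sets.

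Peaks covered 14.4% of the bases between 5 and 10 kb from the edges of broad peaks and 9.53% of those from the edges of other peaks, a ratio of 1.51. Nearer the edge the ratio was 1.52 within the first 1 kb, 1.36 between 1 and 2 kb and 1.495 between 2 and 5 kb. Farther out it was 1.28 between 10 and 20 kb and 1.23 between 20 and 30 kb. The fuller surroundings thus reached beyond the adjoining peaks, and the ratio was lower past 10 kb.

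**Figure D4:**
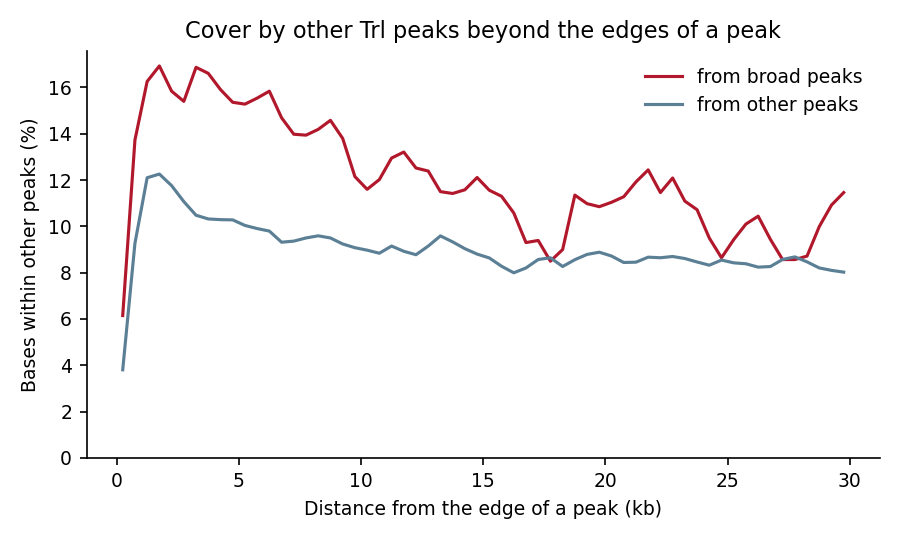
Bases covered by other peaks in % (y axis) by distance in kb from the edges of a peak (x axis, steps of 500 bp, both sides averaged), from broad and from other peaks. The broad curve is mostly the higher one, with 14.4% against 9.53% between 5 and 10 kb and 10.4% against 8.45% between 20 and 30 kb.

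Broad peaks had other broad peaks nearby more often than narrower peaks did. At least 1 other broad peak lay within 10 kb of 139 broad peaks, or 25.7% (22.2 to 29.6%), against 663 other peaks, or 14.3% (13.3 to 15.3%), a difference of 11.5 points (7.82 to 15.5). On 3L, with 19% of the broad and 13.5% of the other peaks, the difference of 5.48 points had an interval that included 0 (-1.40 to 14.5). Such a neighbour counts from both sides, so these 139 peaks are companions of each other. Part of this goes with the larger number of neighbours. In a count of neighbour pairs, a peak near several others counts once for each of them. Of 944 such neighbours of broad peaks, 170 were broad, or 18.0% (15.7 to 20.6%). Around other peaks it was 774 of 6340, or 12.2% (11.4 to 13.04%). These intervals take the repeated counts as independent. The single nearest peak was broad for 14.1% of the broad peaks (11.4 to 17.3%) and for 10.7% of the other peaks (9.82 to 11.6%). Pooled over the arms, that difference was 3.40 points (0.57 to 6.70), while on each of the 5 large arms its interval included 0.

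Read in order along an arm, most broad peaks stood between narrower ones. There were 414 broad peaks with no broad peak next to them in the list, 51 pairs, 4 runs of 3 and 3 runs of 4. The tightest run of 4 filled 65.4% of the 20.2 kb at 2R:15336713-15356935, with gaps of 1280 to 3121 bp between peaks of 2757 to 4134 bp. The other runs of 4 lay at 3L:17963586-17989449, where the gaps ranged from 245 to 10931 bp, and at 3R:9842623-9884101, with gaps of 1913 to 22378 bp. A run of 3 at 3R:12054206-12068999 was the fullest of those with 3 or more peaks, with 85.1% of its 14.8 kb inside peaks.

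Chains were formed wherever neighbouring peaks were at most 10 kb apart. Chains of 5 or more peaks held 165 broad peaks, or 30.6% (26.8 to 34.6%), against 20.5% (19.4 to 21.7%) of the other peaks, a difference of 10.1 points (6.15 to 14.2). On 3L, with 26.0% of the broad and 22.8% of the other peaks, the interval of the difference included 0 (-4.88 to 12.9). The difference was 5.49 points when chains were formed at 5 kb. Among peaks scored at or above the median it was 1.69 points, with 9.28% of the broad and 7.59% of the other peaks in such chains. Neither has an interval here, and without one the latter cannot be set apart from 0.

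The share of broad peaks was 7.22% (6.01 to 8.65%) of the 1482 peaks that stood alone, 9.37% (7.85 to 11.2%) in chains of 2, 11.2% (9.65 to 13.0%) in chains of 3 or 4 and 14.9% (12.7 to 17.3%) in chains of 5 to 9. In the 17 chains of 10 or more it was 14.3% (10.1 to 19.8%), and 6 of those 17 held no broad peak. The chain with most broad peaks, at 2R:7479381-7554893, held 5 among 15 peaks. Chains with 4 included 3R:12046647-12086675 with 12 peaks, 3R:17405570-17463638 with 12 peaks and 2L:470158-492539, where 4 of only 5 peaks were broad.

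Company was more frequent in the wider classes on both sides of the threshold, and 2500 bp marked no break. A peak within 10 kb was found for 64.9% of the peaks under 800 bp, 71.9% of those of 1000 to 1249 bp and 75.7% of those of 2000 to 2499 bp. Among the broad peaks it was 75.3% of those of 2500 to 2999 bp, 83.2% of those of 3000 to 3999 bp, 85.2% of the 61 of 4000 to 4999 bp and 84.0% of the 50 of 5000 bp or wider. The narrowest broad class did not differ detectably from the class below it (95% intervals 69.3 to 80.5% and 71.4 to 79.6%). A broad neighbour was likewise near 18.1% of the peaks of 2500 to 2999 bp and 17.2% of those of 2000 to 2499 bp, but near 25.7% of those of 3000 to 3999 bp, 45.9% of those of 4000 to 4999 bp and 36.0% of the widest. The extra company of the broad peaks thus came mostly from members of 3000 bp or wider.

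**Figure D5:**
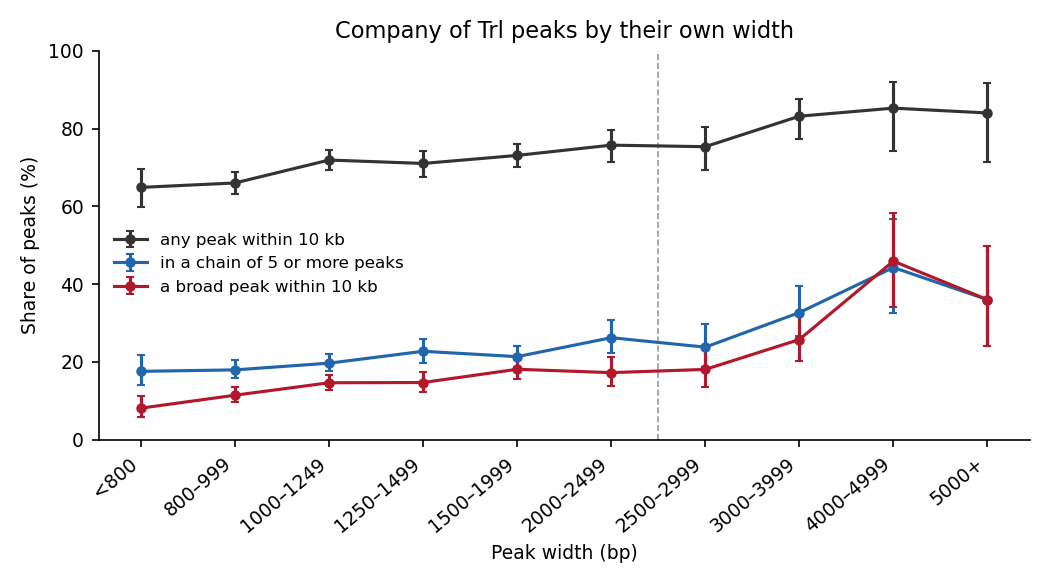
Share of peaks in % (y axis) with any peak within 10 kb, in a chain of 5 or more peaks or with a broad peak within 10 kb, by the peak's own width in bp (x axis), with 95% Wilson intervals and a dashed line at 2500 bp. Shares with a broad peak nearby run from 8.11% under 800 bp to 45.9% at 4000 to 4999 bp.

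The widest regions themselves differed in their surroundings. The widest, 10387 bp at 2R:7516004-7526390, lay inside the chain of 15 on 2R, with the next peak 138 bp to its right and 1128 bp to its left. At X:7584281-7593582, a peak of 9302 bp was followed after 484 bp by a peak of 738 bp and then by broad peaks of 2985 and 6913 bp that were 15 bp apart. Merged across gaps of up to 1000 bp, these 4 peaks form the widest region of the list, 20861 bp at X:7584281-7605141, with no other peak for 60224 bp on the left and 180100 bp on the right. This stretch therefore counts among the broad peaks with close company, yet it stands far from all other peaks.

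Other very wide peaks stood alone. The peak of 8304 bp at 2L:243127-251430 had its neighbours 18149 bp and 15543 bp away, and that of 8298 bp at 3L:14747176-14755473 had them 10165 and 12912 bp away. These were the 2 of the 10 widest with no peak within 10 kb. Among the rest of the 10, the peak of 8056 bp at X:2193244-2201299 lay 1066 bp from another of 5899 bp in a chain of 14. The peak of 8076 bp at 2R:8473602-8481677 had a small peak of 1119 bp at 867 bp on its right and nothing for 19490 bp on its left. The remaining 4 were 7851 bp at 3R:7582866-7590716, 7442 bp at 2R:12466504-12473945, 7248 bp at 2L:5976715-5983962 and 7051 bp at 3R:627726-634776, with nearest gaps of 8190, 7317, 3376 and 449 bp.

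In all, 107 broad peaks had no peak within 10 kb, with a median width of 2963 bp against 3179 bp for the 433 with company, and the share scored 3100 was 72.9% and 72.7%. The farthest from any other peak was 2617 bp wide at X:11047918-11050534, with gaps of 71556 and 65497 bp. It was followed by peaks at 3R:911853-914718 (2866 bp, nearest gap 64107 bp), 3L:15226836-15229353 (2518 bp, 54684 bp), 3L:6543588-6546563 (2976 bp, 53451 bp) and 2R:7414934-7417804 (2871 bp, 51158 bp). All 5 scored 3100 and all were under 3000 bp. Isolation with that score was not limited to such widths. Examples are 3L:14264870-14268392 (3523 bp, nearest gap 48832 bp) and 3R:26211511-26216454 (4944 bp, 39672 bp), both scored 3100.

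At the other extreme, 6 broad peaks (1.11%) had 6 peaks within 10 kb. Among the narrower peaks, 26 (0.56%) had 6 and 3 (0.06%) had 7. Of the 6 broad peaks, 5 lay on 3R, and 3 of those belonged to the same chain of 12 peaks. Among these 6, the fullest flanks surrounded the peak of 2947 bp at 3R:12066053-12068999, where other peaks covered 72.7% of the 10 kb on each side, and its neighbour of 5481 bp at 3R:12059021-12064501 (66.7%). The third on that stretch was the low-scored peak of 3034 bp already named. The remaining 3 were 5754 bp at X:3569615-3575368 (55.6%), 3600 bp at 3R:14747196-14750795 (48.9%) and 5324 bp at 3R:5051522-5056845 (41.05%).

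Over 117 full bins of 1 Mb there were 4.56 ± 2.74 broad and 39.3 ± 11.3 other peaks per bin (SD over bins), and 5 bins had no broad peak. The counts of broad and other peaks per bin had a Pearson's r of 0.47 and a Spearman's rho of 0.43 over the 117 bins, a moderate association given as a description of bins that share 1 list and its mappable sequence. The bin 2R:3000001-4000000, for example, held 71 peaks of which 6 were broad. The first 1 Mb of 2L held the most broad peaks, 13 of 59, followed by 3R:19000001-20000000 with 11 of 52, 3R:5000001-6000000 with 11 of 72 and 2R:15000001-16000000 with 10 of 39. Several bins held 9. Broad peaks were thus 22.03% of the peaks in the first of these bins and 25.6% in the last.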

How the data were processed

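The peak caller was MACS, per the file headers. Bowtie and the build BDGP5 are named in the submitters' processing notes. Versions, settings, read numbers and any pooling of replicates were not given in the sources used here. For each peak the deposited list gives a position and a score in a unit the authors did not state. Starts were taken as counted from 0. Members were the peaks with end minus start of 2500 bp or more on 6 arms, whatever their score. The members, measures and the rule for named regions (widest, nearest the threshold, lowest-scored, most isolated, most flanked, longest runs and densest bins) were chosen with earlier results of these data known. Width, gap and chain-size classes were chosen after the data were seen.

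From the list, edge-to-edge gaps, the number of peaks and the bases in peaks within 10 kb of either edge, chains (gaps of at most 10 kb) and 1 Mb bins by peak centre were computed. The span that peaks occupy stood for arm length. Shares have 95% Wilson intervals and differences Newcombe intervals. The calculation of neighbours was checked against a direct count on part of the list. The difference in the share with a peak within 10 kb was tried on simulated lists. GA repeats were not counted, since they need a genome of this build. Alternatives were other widths, distances and scores, merging within 1000 bp, centre distances and means over 5 arms. Python 3.11.15, numpy 2.4.6, pandas 2.3.3, scipy 1.17.1 and matplotlib 3.10.9 were used.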

Additional observations from a re-analysis of the deposited data

Results flagged for a closer look

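The list also held 7 peaks on heterochromatic or unplaced sequences, which are listed because they lie outside the arms compared. None was broad, the widest measuring 1422 bp.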

How the results depend on the processing

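The number of broad peaks is set by the threshold: 952 at 2000 bp, 313 at 3000 bp, 840 regions after merging within 1000 bp and 140 among peaks scored under 3100, the last alternative being chosen after seeing the data. The share on X minus that on the 4 large autosomal arms was -5.06 points at 2000 bp and -4.99 among peaks scored 3100, and turned to 0.32 after merging (the cause was not tested). The point value of the excess of broad over other peaks stayed above 0 in all alternatives run for the 4 measures of company. Most of these alternatives have no interval here. The smallest excess, 1.69 points for chains, therefore cannot be set apart from 0. For any peak nearby the excess was 5.69 points at 20 kb and otherwise 6.39 to 13.1. For 2 or more peaks in the flanks it was 17.7 points at 3000 bp and 5.51 among peaks scored at or above the median, and otherwise 8.89 to 12.96. For a broad peak nearby it was 7.80 points at 5 kb and otherwise 8.93 to 14.8. For chains it was 14.8 points at 3000 bp, 1.69 among peaks scored at or above the median and 5.49 at 5 kb, and otherwise 6.84 to 12.7. No paired analysis was possible because the result comes from no test and there was 1 list. No replicate could be left out, and what depth limits is unknown.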

Other observations

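The share of broad peaks was also counted toward the ends of the arms. In the 2 Mb of 2L next to the centromere, 3 of 58 peaks were broad (5.17%, 95% Wilson interval 1.78 to 14.1%), against 12.8% on the rest of that arm. In the 2 Mb at the other end of 2L it was 16 of 95 (16.8%, 10.6 to 25.6%), against 11.7% on the rest. At the corresponding end of 2R it was 6 of 98 (6.12%, 2.84 to 12.7%), against 12.2% on the rest. There it was 8.62% on 3L (4.75 to 15.1%), against 9.44% on the rest, 11.2% on 3R (6.22 to 19.5%), against 11.1%, and 11.3% on X (6.45 to 19.2%), against 7.61%. The intervals of these 5 ends overlap. Next to the centromere, 2 of 28 peaks were broad on 2R, 2 of 37 on X, 4 of 33 on 3L and 8 of 91 on 3R. These windows were chosen after seeing the data, no test was run, and the counts are small.

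Among the 50 peaks of 5000 bp or wider, 11 each lay on 2L and X, 10 on 3R, 9 each on 2R and 3L and none on arm 4. In all, 2L held 855 peaks, X 977, 3R 1243, 2R 1010 and 3L 1069, so equal counts are not equal shares. With so few of the widest peaks per arm, these counts do not set the X apart from the other large arms. Of these 50 peaks, 10 had another peak within 300 bp, 18 had another broad peak within 10 kb and 8 had no peak within 10 kb.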
